A study of Homo sapiens with 4 samples.

Results

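The genes described here are transcriptional targets of p53, measured in HEK293T cells after RNA interference against CHD6. They were chosen as the array features that the platform annotation assigns to exactly 1 gene, where that gene is one of 34 listed p53 targets. Of these, 32 were measured, through 96 features, among 18334 genes in all. BTG2 and FDXR were not analysed here. HEK293T cells derive from human embryonic kidney and express SV40 large T antigen. CHD6 belongs to the chromodomain helicases, which remodel chromatin with ATP. Plasmids delivered the siRNA, directed at CHD6 in 1 set of samples and a control siRNA in the other, and total RNA was taken at 48 h. Each of 4 two-colour Agilent arrays compared a CHD6 siRNA sample directly with a control siRNA sample, with Cy3 on the CHD6 siRNA sample in replicates 1 and 3 and Hy5 on it in replicates 2 and 4. The labels name neither the plasmid, nor the promoter that drives the siRNA, nor separate cultures, so p-values reflect only how these arrays differ, and that spread may be technical. Log ratios hold no level, so the line could not be checked against its markers.

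p53 is a transcription factor that is held at low activity by the ubiquitin ligase MDM2 and is released by DNA damage and other stresses. Its targets halt the cell cycle, start apoptosis, repair DNA, adjust metabolism and, through MDM2, close a feedback loop. In cells with SV40 large T antigen, the viral protein binds p53 and blocks its activation of target genes, and it also binds the retinoblastoma family.

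Values are log2 ratios of CHD6 siRNA over control siRNA. The base was taken as 2, and the direction is likely and not settled. Its basis is that all 4 titles name the siRNA first and that feature 27564, 1 of 3 features for CHD6, was at -1.13, -1.21, -0.85 and -1.42 on replicates 1 to 4. Feature 1672 of CHD6 averaged -0.01 ± 0.06 (SD, n = 4) and feature 36130 averaged -0.17 ± 0.30 (SD, n = 4). Arrays of opposite dye orientation correlated at -0.84 to -0.68 across features and those of the same orientation at 0.80 and 0.79, so most values as deposited followed the dye orientation. Under the other reading, in which the columns are Hy5 over Cy3, the dye coefficient described below would be the siRNA difference. For CHD6 that coefficient was -0.095 (limma adjusted p = 0.346).

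As deposited, the p53 targets leaned higher with CHD6 siRNA, led by GDF15, but none passed the test across all genes. Of the 32 measured members, 25 had a mean above 0, against 48.9% of all genes. Their median log2 ratio was 0.13, against -0.0025 over all genes, and their means ran from -0.23 (TP53INP1) to 0.78 (GDF15). limma with a dye coefficient called 0 members at an adjusted p under 0.05 and 0.0218% of all genes, and the smallest adjusted p of a member was 0.0887. At an unadjusted p under 0.05 there were 8 members higher, against 4.97% of all genes, and 1 lower, against 4.4%. Leaving out replicate 2 raised the count of members higher at that threshold, and leaving out any other replicate lowered it. The number of all genes at that threshold, in either direction, moved the same way each time. The count of members lower changed too without replicate 1, 2 or 4. The members' median was 0.07 without replicate 4. With the intercept alone as the model, 0 members and 0% of genes passed (limma), and 2 members, GDF15 and FAS, had an unadjusted p under 0.05, against 1.32% of genes. The members above 0 on all 4 arrays were GDF15, FAS, GADD45A and SPATA18, 4 of 32 against 3.55% of all genes. The 4 became 3 with median centring or by the median of features. Without replicate 2, 7 were above 0 on the arrays left, for which no share over all genes was computed. On all 4 arrays 0 members were below 0, against 3.49% of all genes.

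**Figure D1:**
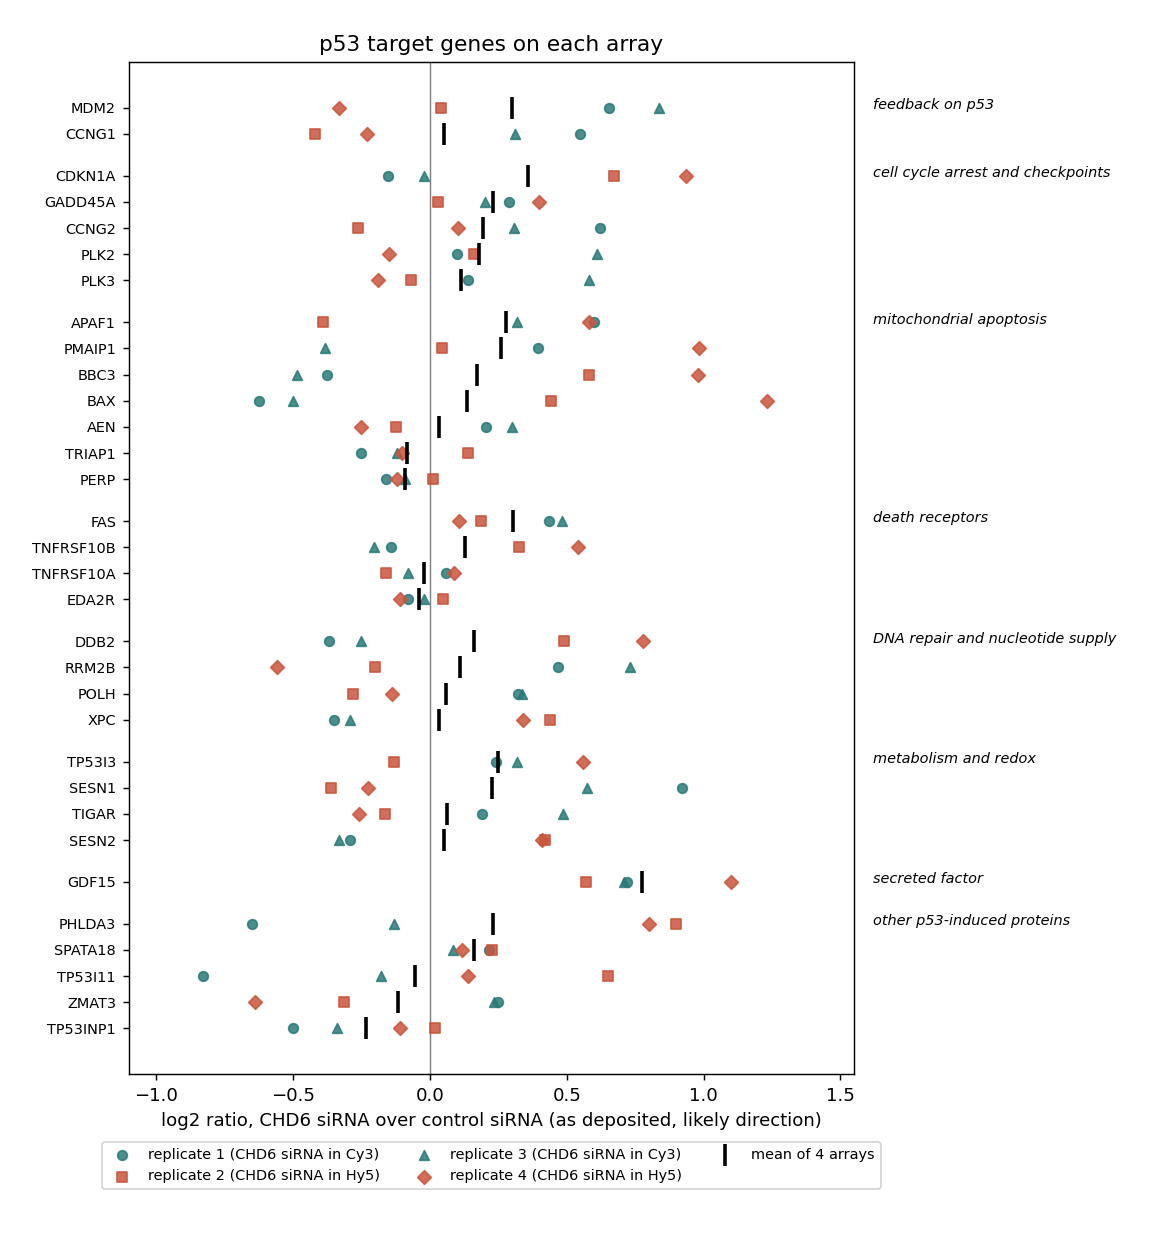
Log2 ratio of CHD6 siRNA over control siRNA (horizontal axis, as deposited) for each of the 32 measured p53 targets, grouped by role, with 1 point per array and a bar at the mean of 4 arrays. Colour gives the dye of the CHD6 siRNA sample. GDF15 has the mean furthest right, with points from 0.57 to 1.10, while for many genes, such as BAX and BBC3, the 2 colours fall on opposite sides of 0.

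The promoter windows of these genes show how unevenly p53 sites are placed near their start sites. p53 binds DNA as a tetramer at 2 copies of a 10-base half-site set close together. RefSeq windows of 300 bases (250 before and 50 after a start of the gene, which can have several, GRCh38.p14) were matched for 28 of the 34 listed genes. None was matched for GADD45A, PHLDA3, RRM2B, TNFRSF10A, TNFRSF10B or TP53INP1. The windows were searched for the p53 consensus, 2 half-sites with a spacer of at most 13 bases, at most 3 mismatches in the 20 bases, and the invariant C and G of each core kept. The half-site consensus is its own reverse complement, so both strands are covered. A match was found for 10 of the 28 genes (35.7%), against 16.3% of 14411 array genes with a window. At most 2 mismatches left 5 of 28 (17.9%), against 3.65%. The matches of the measured members are shown because they let the named genes be compared, with half-sites in capitals and the spacer in lower case.
DDB2: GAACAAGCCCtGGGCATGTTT
AEN: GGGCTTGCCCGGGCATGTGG
FAS: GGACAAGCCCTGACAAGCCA
MDM2: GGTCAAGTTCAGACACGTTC
GDF15: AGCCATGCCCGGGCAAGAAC
SESN1: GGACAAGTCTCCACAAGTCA
PMAIP1: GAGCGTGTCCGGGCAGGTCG
PLK2: AGACTTGCTTcccGGCCACGCGC
ZMAT3: GGGCCTGCTCcgccaaGCACATGCGC

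DDB2 holds the match with 0 mismatches (chr11:47214979-47214999, plus strand). It lies at positions 6 to 26 counted from the start used in 1 of its 2 windows. That start is not the first, as the annotated gene begins at chr11:47214454. The matches of FAS (chr10:88991309-88991328, plus strand) and MDM2 (chr12:68808923-68808942, plus strand) have 2 mismatches each, and that of GDF15 (chr19:18386186-18386205, plus strand) has 3. The 9 measured members with a match had a median log2 ratio of 0.23 and the 17 without one a median of 0.06, while over all array genes both medians were -0.0025. With at most 2 mismatches the medians were 0.23 for 4 members and 0.13 for 22, and the difference was not tested. CDKN1A has no match in its window, and its known p53 sites lie further upstream. The windows of the 3 genes below are printed whole, with the matched site in capitals, because these genes had the smallest p-values among members with a match.
GDF15: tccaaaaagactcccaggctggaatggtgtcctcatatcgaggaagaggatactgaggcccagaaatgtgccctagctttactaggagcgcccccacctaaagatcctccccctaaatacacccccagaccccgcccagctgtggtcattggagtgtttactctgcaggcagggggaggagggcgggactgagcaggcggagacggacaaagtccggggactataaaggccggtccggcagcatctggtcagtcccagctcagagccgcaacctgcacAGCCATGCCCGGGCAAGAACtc
FAS: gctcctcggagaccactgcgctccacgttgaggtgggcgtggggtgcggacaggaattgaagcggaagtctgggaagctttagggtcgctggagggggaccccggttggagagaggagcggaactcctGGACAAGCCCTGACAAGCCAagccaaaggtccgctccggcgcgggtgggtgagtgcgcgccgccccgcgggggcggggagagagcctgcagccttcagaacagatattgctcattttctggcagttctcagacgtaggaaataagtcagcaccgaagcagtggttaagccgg
MDM2: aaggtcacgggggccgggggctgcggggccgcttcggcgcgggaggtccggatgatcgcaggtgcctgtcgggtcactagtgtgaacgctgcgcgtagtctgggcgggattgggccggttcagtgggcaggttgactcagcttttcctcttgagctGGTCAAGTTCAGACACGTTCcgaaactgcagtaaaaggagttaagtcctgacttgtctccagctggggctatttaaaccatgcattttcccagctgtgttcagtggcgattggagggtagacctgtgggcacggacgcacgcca

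Counted from the start used in the window shown, the site of GDF15 spans positions 29 to 48, that of FAS -122 to -103, and that of MDM2 -94 to -75. MDM2 has 4 windows and FAS 3, for several starts, and the one shown for each holds the match with the fewest mismatches. The annotated FAS gene begins at chr10:88964050, so its site lies within the gene, near a later start. These matches describe the letters in the window and were not tested for binding in these cells.

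GDF15, a secreted stress cytokine of the TGF-beta superfamily and a p53 target, stood apart from the other members. Its 1 feature was at 0.72, 0.57, 0.71 and 1.10 on replicates 1 to 4. All 4 arrays lay above 0, and the 2 dye orientations overlapped, with means of 0.72 (CHD6 siRNA in Cy3) and 0.84 (in Hy5). The mean of 0.78 ± 0.23 (SD, n = 4), a 1.71-fold ratio, ranked 2 from the highest among 18334 genes, with an adjusted p of 0.0887 (limma with the dye coefficient). With the columns scaled to equal spread it passed (limma adjusted p = 0.0390). It did not pass without moderation (0.72), with any replicate left out (0.232 to 0.926) or with no dye coefficient (1.0). Its dye coefficient was 0.06 (limma adjusted p = 0.663), so turned by dye it would be near 0. Without GDF15, the other 31 members had a median of 0.13 and 24 means above 0.

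Feedback on p53 runs through MDM2, the ubiquitin ligase that degrades p53, and CCNG1, a cyclin that recruits a phosphatase to MDM2. MDM2 was at 0.66, 0.04, 0.84 and -0.33 on replicates 1 to 4. The arrays with CHD6 siRNA in Cy3 were high and the other pair lay near or below 0, so the orientations did not overlap. Its mean was 0.30 ± 0.54 (SD, n = 4; limma adjusted p = 0.326). CCNG1 showed the same pattern, with 0.55, -0.42, 0.31 and -0.23 and a mean of 0.05 ± 0.45 (SD, n = 4; limma adjusted p = 0.888).

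Among genes of cell cycle arrest, all 5 measured members had a mean above 0, against 48.9% of all genes. Those means ran from 0.12 to 0.36, and 0 passed. CDKN1A, the cyclin-dependent kinase inhibitor p21, was at -0.15, 0.67, -0.02 and 0.94 on replicates 1 to 4. Here the arrays with CHD6 siRNA in Hy5 were high and the others just below 0, the reverse of MDM2. On replicate 3 the sign rested on 1 feature, at -0.79, as the 10 others averaged 0.06 there. The mean of CDKN1A was 0.36 ± 0.53 (SD, n = 4; limma adjusted p = 0.217) and ranked 112 from the highest of all genes as deposited. Its dye coefficient, the value under the other reading, was 0.45 (limma adjusted p = 0.00194). GADD45A, a stress sensor that binds CDKN1A and PCNA, was at 0.29, 0.03, 0.20 and 0.40. GADD45A was above 0 on all arrays, but on replicate 2 it lay below the median of all genes, 0.05. Its dye orientations overlapped, with a mean of 0.23 ± 0.16 (SD, n = 4; limma adjusted p = 0.440). CCNG2, a cyclin linked to arrest, averaged 0.19 ± 0.37, and its 3 features had means from -0.04 to 0.32. The polo-like kinases PLK2 and PLK3 averaged 0.18 ± 0.32 and 0.12 ± 0.34 (SD, n = 4 each).

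The genes of mitochondrial apoptosis were split, with 5 of 7 means above 0, against 48.9% of all genes. At an unadjusted p under 0.05, 0 were higher, against 4.97% of all genes, and 0 lower, against 4.4%. BBC3, which encodes the BH3-only protein PUMA, was at -0.38, 0.58, -0.49 and 0.98 on replicates 1 to 4. BAX, the pore-forming effector, was at -0.63, 0.44, -0.50 and 1.23. In both genes, averaged over features, the orientations lay on opposite sides of 0. The 3 features of BBC3 disagreed, as feature 38136 was at -0.10, 0.29, 0.21 and 1.10. Features 23612 and 8339 of BBC3 were below 0 with CHD6 siRNA in Cy3 and above 0 with it in Hy5. BBC3 averaged 0.17 ± 0.72 and BAX 0.14 ± 0.87 (SD, n = 4 each; limma adjusted p = 0.572 and 0.789), and the mean of BAX changed sign without replicate 4 (-0.06). PMAIP1, which encodes the BH3-only protein NOXA, was at 0.40, 0.05, -0.38 and 0.98. It differed more between arrays of 1 orientation than between the orientation means, and its mean of 0.26 ± 0.58 (SD, n = 4) stood at 0.03 without replicate 4. APAF1, the scaffold of the apoptosome, was at 0.60, -0.39, 0.32 and 0.58, with a mean of 0.28 ± 0.46 (SD, n = 4) that stood at 0.04 without replicate 4. The nuclease gene AEN averaged 0.03. The membrane protein gene PERP and the apoptosis inhibitor TRIAP1 averaged -0.09 and -0.08.

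Of the 4 death receptors, FAS had the highest mean as deposited, and TNFRSF10B would have it under the other reading, with dye coefficients of -0.16 for FAS and 0.30 for TNFRSF10B. The values of FAS were 0.43, 0.19, 0.48 and 0.11 on replicates 1 to 4. All 4 were above 0, with the arrays of CHD6 siRNA in Cy3 higher than the others. The mean was 0.30 ± 0.18 (SD, n = 4; limma adjusted p = 0.225) and ranged from 0.28 to 0.32 when each replicate was left out. The TRAIL receptor genes TNFRSF10B and TNFRSF10A averaged 0.13 ± 0.36 and -0.02 ± 0.12 (SD, n = 4 each). EDA2R, a receptor for an ectodysplasin isoform, averaged -0.04 ± 0.07 (SD, n = 4), with all 4 values between -0.11 and 0.05.

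The 4 DNA repair and nucleotide supply genes all had means above 0, from 0.04 to 0.16, against 48.9% of all genes, and 0 passed. DDB2, the damaged-DNA binding subunit that starts global nucleotide excision repair, was at -0.37, 0.49, -0.25 and 0.78. XPC, which recognises distorted DNA, was at -0.35, 0.44, -0.29 and 0.34. In both the orientations lay on opposite sides of 0, with means of 0.16 and 0.04. RRM2B, the p53-induced ribonucleotide reductase subunit, ran the opposite way at 0.47, -0.20, 0.73 and -0.56, with a mean of 0.11. POLH, the translesion polymerase eta, averaged 0.06.

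Metabolic and redox targets likewise had means above 0 in 4 of 4 measured members, against 48.9% of all genes. SESN1 and SESN2 encode sestrins, which restrain mTORC1. SESN1 was at 0.92, -0.36, 0.58 and -0.23, and SESN2 at -0.29, 0.42, -0.33 and 0.41, so the means of the paralogs differed by dye orientation in opposite directions. The 2 features of SESN1 disagreed, with feature 5748 at 1.41, -0.74, 0.94 and -0.63 and feature 27644 above 0 on all arrays, at 0.43, 0.02, 0.21 and 0.18. The means of those 2 features were nonetheless close, at 0.245 and 0.21. As genes, SESN1 averaged 0.23 ± 0.62 and SESN2 0.05 ± 0.42 (SD, n = 4 each). TP53I3, a quinone oxidoreductase, was above 0 on 3 arrays and averaged 0.25 ± 0.29 (SD, n = 4), or 0.08 without replicate 4. TIGAR, which lowers fructose-2,6-bisphosphate and so glycolysis, averaged 0.06.

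The other p53-induced genes included the lowest member. TP53INP1, a stress protein that acts in autophagy and apoptosis, was at -0.50, 0.02, -0.34 and -0.11. It was below 0 on 3 arrays, with a mean of -0.23 ± 0.23 (SD, n = 4; limma adjusted p = 0.368). PHLDA3, an inhibitor of AKT, was at -0.65, 0.90, -0.13 and 0.80, with a mean of 0.23 ± 0.75 (SD, n = 4) and orientations on opposite sides of 0. SPATA18, which acts in mitochondrial quality control, was at 0.22, 0.23, 0.08 and 0.12. That steady mean of 0.16 ± 0.07 (SD, n = 4; limma adjusted p = 0.530) came from 3 features that disagreed: feature 14663 was at 0.42, -0.11, 0.75 and -0.31, and feature 33981 at 0.01, 0.66, -0.17 and 0.59. ZMAT3, an RNA-binding zinc finger gene, averaged -0.12, and TP53I11 averaged -0.06.

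Repeated features of 1 accession showed how closely spots agreed on an array, which is not how well they measured the gene. 5 members had 10 or more features, which may carry 1 probe sequence where the accession is the same. On 1 array, the 10 features of CDKN1A annotated to NM_000389 had SDs from 0.04 to 0.06, while the array means of those features had an SD of 0.49 over 4 arrays. For PMAIP1 the SDs within an array were 0.03 to 0.08, against 0.58 over arrays, and for MDM2 0.12 to 0.18, against 0.57. The spread of these members therefore lay between arrays and not between spots, and for CDKN1A and MDM2 the arrays split by dye orientation. Features of 1 accession did not agree in every gene, as the 3 of BBC3 had SDs of 0.24 to 0.62 within an array. FAS was the tightest over arrays, with 10 features at SDs of 0.07 to 0.13 within an array and 0.19 over arrays. A feature of another accession did not always follow: CDKN1A at NM_078467 was at 0.19, 0.65, -0.79 and 1.88, and FAS at AK026195 averaged 0.11 against 0.32 for the 10 others. Over all 96 features of the members, 85 had a mean above 0, but 55 of these belong to the 5 repeated genes. Those 55 are all the features of these genes, so repeat spots weigh on the count. No share over all features was computed for it.

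**Figure D2:**
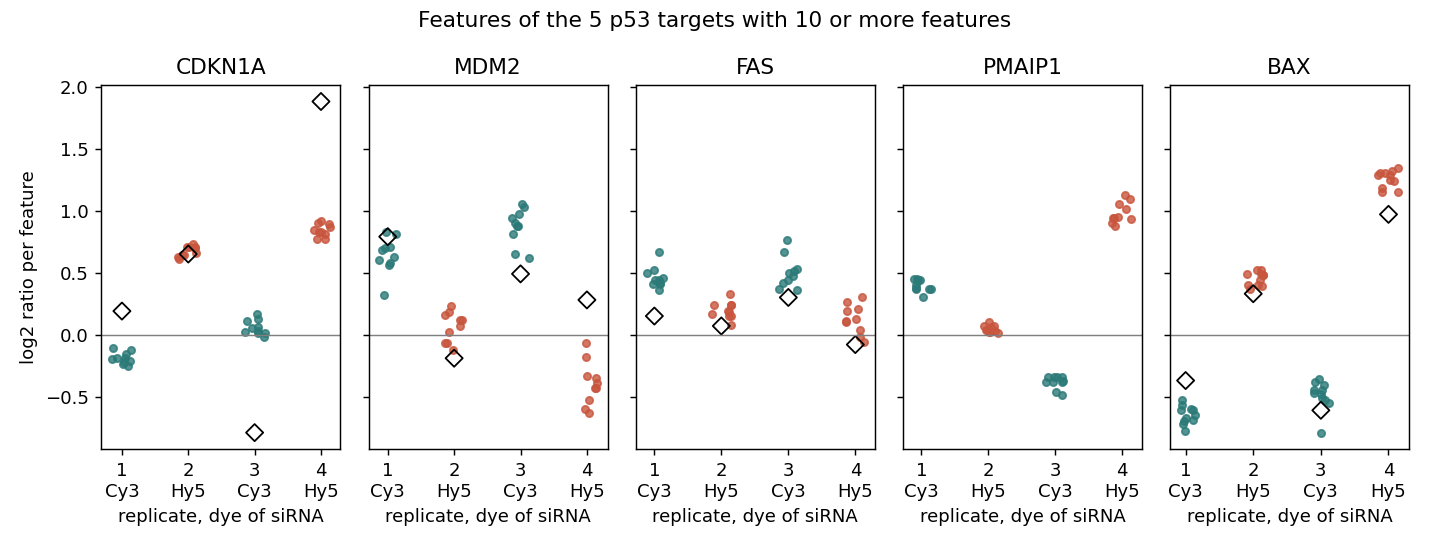
Log2 ratio of every feature (vertical axis) of the 5 p53 targets with 10 or more features, by replicate and dye of the CHD6 siRNA sample (horizontal axis). Filled points share 1 accession and open diamonds have another. Features of 1 accession lie close together on an array, such as 0.77 to 0.92 for CDKN1A on replicate 4, while arrays differ widely.

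For the typical member, the dye coefficient was larger in size than the mean log ratio. The dye coefficient is the change in log2 ratio from the average of both orientations to the one with CHD6 siRNA in Hy5. Its median size was 0.27 over the members, against 0.19 over all genes, and the median size of the mean log ratio was 0.15 over the members, against 0.06. limma called the dye coefficient for 18 members, against 44.8% of all genes. Of the 18, 9 were above 0, against 26.9% of all genes, and 9 below, against 18%. The largest were BAX (0.70), PHLDA3 (0.62) and BBC3 (0.61) above 0, and SESN1 (-0.52), RRM2B (-0.49) and MDM2 (-0.45) below. The 2 orientations gave means of opposite sign for 20 members, of which 10 were above 0 with CHD6 siRNA in Cy3 alone and 10 in Hy5 alone. Means were above 0 in both orientations for 8 members, against 11.7% of all genes, and below 0 in both for 4, against 11.4%.

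**Figure D3:**
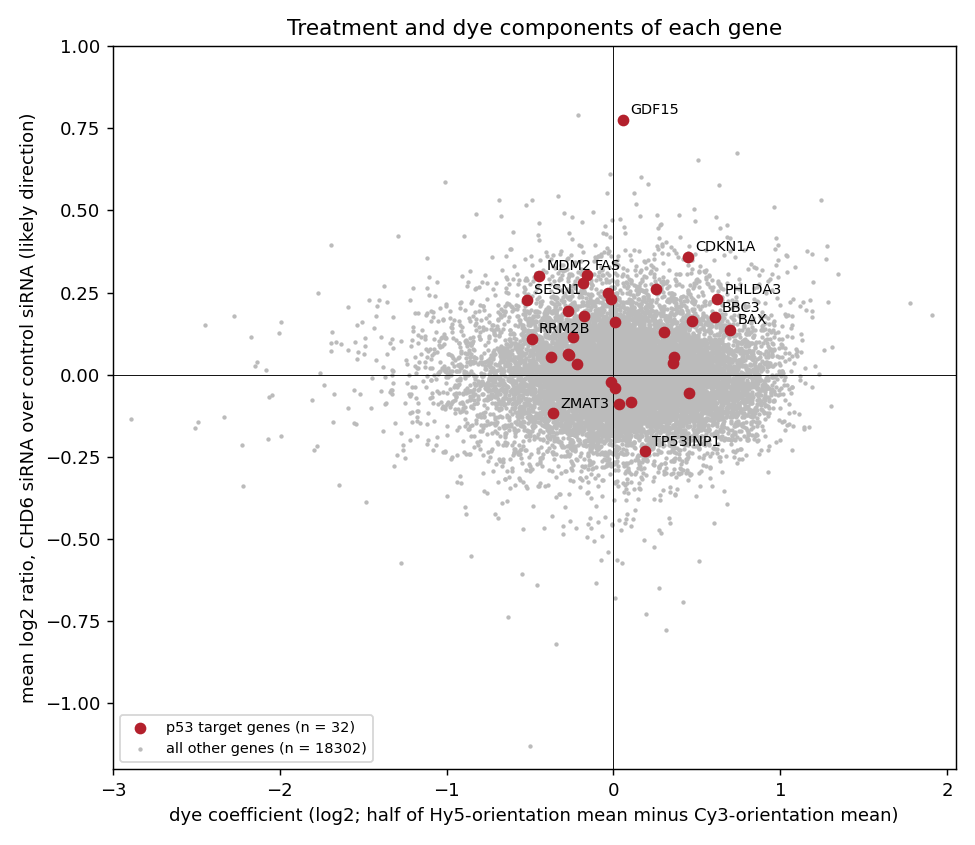
Mean log2 ratio of CHD6 siRNA over control siRNA (vertical axis, likely direction) against the dye coefficient (horizontal axis) for 32 p53 targets and 18302 other genes, 1 point per gene. The p53 targets spread to both sides along the dye axis, and most lie above 0 on the vertical axis, with GDF15 at 0.78.

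If the columns were Hy5 over Cy3, these dye coefficients would be the siRNA differences. The members would then split evenly, with 16 above 0 and a median of -0.0013, and BAX, BBC3, DDB2 and CDKN1A would be higher while MDM2, SESN1, RRM2B and CCNG1 would be lower. DDB2 would then be at 0.47, XPC and SESN2 at 0.36, PMAIP1 at 0.25 and ZMAT3 at -0.36. SPATA18 and TNFRSF10A would be near 0, at 0.011 and -0.0125. Under that reading ATR would be at 0.03 (limma adjusted p = 0.740) and DDIT3 at 0.10 (limma adjusted p = 0.270). That reading would pass 44.8% of all genes, so passing in it does not single out the members.

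On single arrays the members' mean lay above that of all other genes each time, by 0.14, 0.06, 0.16 and 0.18 on replicates 1 to 4. By medians the differences were 0.22, -0.0065, 0.18 and 0.08, so on replicate 2 the typical member did not stand above other genes. By orientation the shift of the mean was 0.15 with CHD6 siRNA in Cy3 and 0.12 with it in Hy5, and that of the median 0.20 and 0.03. Members above 0 numbered 19, 20, 17 and 18 on the 4 arrays, against 42.8%, 56.8%, 44.5% and 53.5% of all genes.

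Of 58 measured further p53 targets, 31 had a mean above 0, against 48.9% of all genes, and their median log2 ratio was 0.03. At an unadjusted p under 0.05 there were 2 higher, against 4.97% of all genes, and 3 lower, against 4.4%, and 0 passed (limma, smallest adjusted p = 0.254). Their mean lay off that of other genes by -0.02, 0.05, 0.03 and 0.03 on replicates 1 to 4. The lowest p-values belonged to PRKAB2, a subunit of the energy sensor AMPK (0.28), RPS27L, a ribosomal protein paralog (0.32), the hydrolase gene CMBL (-0.25) and the cell cycle regulator RGCC (-0.17). The difference from the members was not tested.

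**Figure D4:**
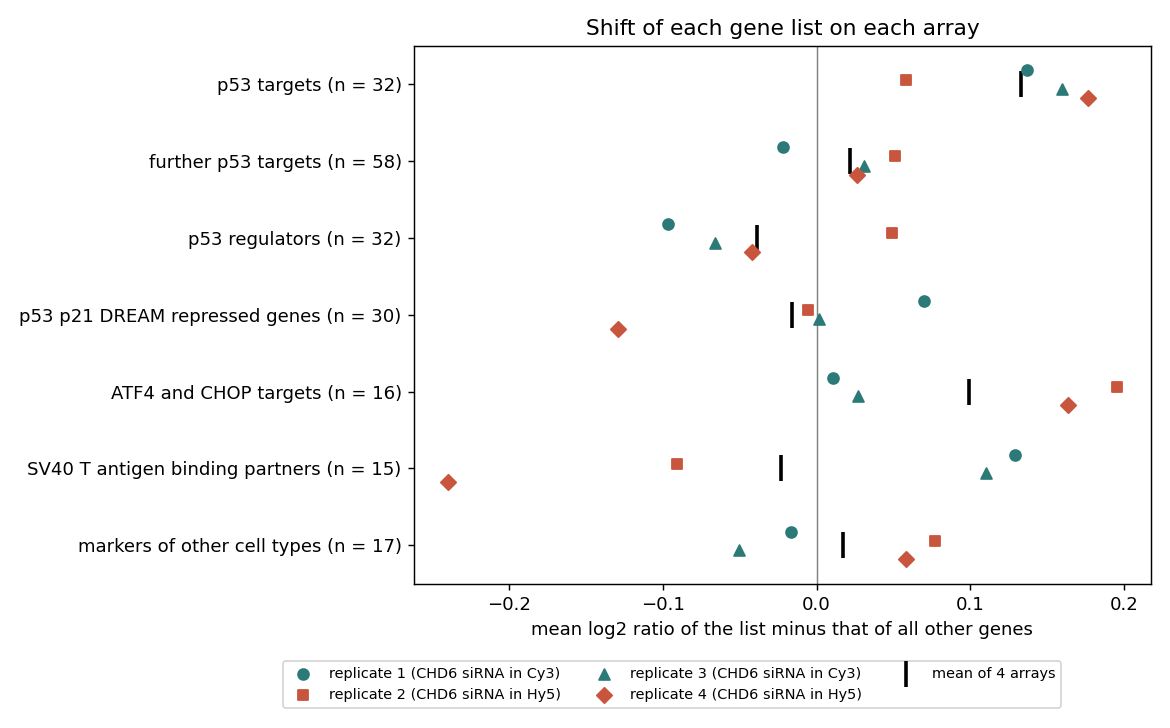
Mean log2 ratio of each gene list minus that of all other genes (horizontal axis) on each of 4 arrays, with a bar at their mean. The p53 targets lie to the right of 0 on every array, from 0.06 to 0.18, and the 58 further p53 targets lie near 0, from -0.02 to 0.05.

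Regulators upstream of p53 had a median of -0.07, with 10 of 32 means above 0, against 48.9% of all genes, and 0 passing (limma). At an unadjusted p under 0.05, 4 were higher, against 4.97% of all genes, and 4 lower, against 4.4%. ATR, the replication stress kinase that signals to p53, was at -0.49, -0.43, -0.46 and -0.39 (limma adjusted p = 0.117). CABLES1, a p53-binding adaptor of cyclin-dependent kinases, averaged 0.42 (limma adjusted p = 0.148), and the kinase genes DYRK2 and MAPK8 averaged -0.27 and 0.22. MDM4, the MDM2 relative that masks the p53 activation domain, averaged 0.05 ± 0.55 (SD, n = 4) and fell on opposite sides of 0 by dye, like MDM2.

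Genes repressed by p53 through p21 and the DREAM complex had 15 of 30 means above 0, against 48.9% of all genes, and a median of -0.0025. At an unadjusted p under 0.05, 1 was higher, the spindle midzone gene PRC1 (0.25), against 4.97% of all genes. At that threshold 0 were lower, against 4.4%, and 0 passed after adjustment (limma). FOXM1, a mitotic transcription factor, averaged -0.38 ± 0.62 (SD, n = 4), the kinase AURKA -0.16 and the cyclin CCNB2 0.14.

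GDF15, SESN2 and TNFRSF10B are also induced by the stress transcription factors ATF4 and CHOP, so targets of those factors are given beside them. Of 16, 11 had a mean above 0, against 48.9% of all genes, with a median of 0.05, and 4 were higher at an unadjusted p under 0.05, against 4.97% of all genes. DDIT3, which encodes CHOP, was at 0.31, 0.46, 0.22 and 0.47 (limma adjusted p = 0.173). TRIB3, NUPR1 and ASNS averaged 0.30, 0.35 and 0.18. The list lay above other genes by 0.20 and 0.16 with CHD6 siRNA in Hy5 and by 0.01 and 0.03 with it in Cy3, so its shift differed by dye orientation. Its part in the values of GDF15 was not tested.

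The 15 partners of T antigen had a median of -0.02. limma called the dye coefficient for 8 of them, against 44.8% of all genes, and that of RB1 was -0.76. RBL2, PPP2CA, RB1 and LIN54 averaged 0.21, -0.24, -0.18 and -0.10, and 0 of the 15 passed (limma). Markers of other cell types had a median of 0.02, with 10 of 17 means above 0, against 48.9% of all genes. At an unadjusted p under 0.05, 0 markers were higher, against 4.97% of all genes, and 0 lower, against 4.4%. Their means ran from -0.12 (CD3E) to 0.16 (CD68), and the mean of the list lay off that of other genes by -0.05 to 0.08 on single arrays. Fewer cells of a type and less RNA per cell cannot be told apart in these bulk samples. Under the Hy5 over Cy3 reading, the mean shift would be 0.0171 for the further p53 targets, 0.0424 for the regulators, -0.0514 for the repressed genes, 0.0804 for the ATF4 and CHOP targets, -0.14 for the T antigen partners and 0.0507 for the markers of other cell types.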

How the data were processed

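Total RNA from HEK293T cells was amplified from an oligo dT-T7 primer, 200 ng per sample, and hybridised to Agilent 2-colour arrays, per the labels' protocols. The deposited values are log ratios per feature, 1 column for each of 4 arrays, taken here as log2 because base 10 would make ordinary spreads implausibly wide. The sources used here give no scanner software, background correction, normalization, base or direction. Columns held 45220 features, 0 missing values and medians of -0.02, 0.03, -0.02 and 0.02 (means were 0). Without channel intensities, signal over background is unknown, and precision is limited by the number of arrays.

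Features were named by the platform annotation, with symbols updated by Entrez identifier (31291 of 31332 features naming 1 gene matched a RefSeq table), and averaged to 18334 genes. Features naming several genes (93) or unnamed here (13795) were left out of gene values. Each gene was fitted with limma 3.58.1 in R 4.3.3 with an intercept and a dye coefficient, moderated by eBayes. P-values were adjusted by Benjamini-Hochberg across all 18334 genes, with a threshold of 0.05. The fit was tested on data simulated from the same model, which checks the calculation and not the direction or size of the values here. Alternatives were the intercept alone, columns turned by dye, other summaries of features, median centring, equal scaling, no moderation, and leaving out each replicate. Promoter windows came from RefSeq (GRCh38.p14). Tables and figures were made in Python 3.11.15.

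The members, the lists and the choice of model were made with earlier results of these data known. Named genes are CHD6, every measured member, and the 4 members of each other list with the smallest p-values, with MDM4 added; features named within a gene were chosen after their values were seen.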

Additional observations from a re-analysis of the deposited data

Results flagged for a closer look

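Among 66 groups of 4 values examined for 1 array far from the other 3, 1 was found, where chance gives about 1 in 20. RBL2, a retinoblastoma family member bound by T antigen, was at -0.13 on replicate 2 and at 0.37, 0.30 and 0.30 on replicates 1, 3 and 4. No p53 target stood out in this way.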

How the results depend on the processing

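Under the intercept alone, other feature summaries, median centring, equal scaling and no moderation, each member kept its direction except AEN, which was at -0.01 by its feature of smallest spread. Of the 32 members, 1 (GDF15) passed with equally scaled columns, at 0.77. At an unadjusted p under 0.05, 2 were higher and 0 lower with the intercept alone, where 242 of 18334 genes had such a p. Without moderation 4 were higher, where 1192 of all genes had such a p. Turned by dye, 18 would pass, against 44.8% of all genes, and 16 would have a mean above 0. At an unadjusted p under 0.05, 10 would be higher and 11 lower, where 9311 of 18334 genes would have such a p. On every array 9 would be above 0, and no share over all genes was computed for this. The list would be shifted by -0.0155 on average, by -0.14 on replicate 1 and by -0.16 on replicate 3, with a median of -0.0013. Members changing sign there would be MDM2 (-0.45), FAS (-0.16), TP53I3 (-0.0325), SESN1 (-0.52), TP53INP1 (0.19), RRM2B (-0.49), AEN (-0.22), PLK3 (-0.25), PLK2 (-0.18), CCNG1 (-0.38), TIGAR (-0.28), TRIAP1 (0.10), CCNG2 (-0.27), GADD45A (-0.015), APAF1 (-0.18), PERP (0.035), POLH (-0.27), EDA2R (0.01) and TP53I11 (0.45). Turning reads the dye coefficient as the siRNA difference.

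With each replicate left out in turn, 5 members changed sign at least once: BAX (-0.0598 to 0.33), TNFRSF10A (-0.085 to 0.04), CCNG1 (-0.0075 to 0.11), TIGAR (-0.0113 to 0.14) and TP53I11 (-0.22 to 0.11). The list's median ran from 0.0746 to 0.13, members higher at an unadjusted p under 0.05 from 4 to 12, members lower from 0 to 2, and members above 0 on every array left from 4 to 7. In each such fit 1 orientation has a lone array, assumed to vary like the others, and the cause of these changes was not tested. Over all genes, limma called 4, but 8 by the median of features, 10 by the feature of smallest spread, 7 with median centring, 9 with equal scaling, 6 without moderation and 0 with any replicate left out. The scalings moved the median of all genes by less than 0.01. Each log ratio is already the difference between 1 CHD6 siRNA sample and 1 control siRNA sample on the same array, so the pairing is kept in every fit. The labels name no separate cultures, so whether arrays share RNA is unknown. The unknown signal over background limits what is said of dim genes.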
